A study of Mus musculus with 48 samples.

Results

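The genes described here are 10 genes of DNA replication and of entry into S phase: the helicase genes Mcm2, Mcm3, Mcm4, Mcm5, Mcm6 and Mcm7, the sliding clamp gene Pcna, the nucleotide enzyme genes Tk1 and Rrm1, and the cyclin gene Ccnd1. They were chosen by symbol for their known roles, with earlier results of these data known. All 10 are among the 11275 genes of the FROZ table, and 6 of them (Mcm3, Mcm7, Pcna, Tk1, Rrm1 and Ccnd1) are among the 6673 genes of the FFPE table. TempO-Seq libraries were made from the livers of 24 male B6C3F1 mice aged 4 weeks, with 1 frozen (FROZ) and 1 formalin-fixed paraffin-embedded (FFPE) library from each mouse, 48 libraries in all. The mice drank water with dichloroacetic acid (DCA) for 6 days at 0, 1.0, 2.0 or 3.5 g/L, which the study converted to intakes of 0 (vehicle), 198, 313 and 427 mg/kg-d, with 6 mice per dose. No group carried a transgene or other modified allele. FROZ pieces were cut from 3 lobes (caudate, right medial and left lateral) and FFPE pieces from 2 of these (not the caudate). FROZ libraries were made from RNA isolated earlier and FFPE libraries from lysed sections. Lobe, extraction route and preservation therefore cannot be told apart. The question put to the data was how the RNA of these genes differed between doses, and whether the answer was the same in both preservations.

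The products of Mcm2 to Mcm7 form a ring that is loaded onto DNA before S phase and later unwinds the double helix ahead of the replication fork. PCNA encircles DNA behind the helicase and holds the polymerases on their template. RRM1 is the large subunit of ribonucleotide reductase, which makes deoxyribonucleotides, and TK1 is the cytosolic thymidine kinase, which salvages thymidine. Cyclin D1, the product of Ccnd1, binds CDK4 and CDK6 in G1, and the kinase pair phosphorylates the retinoblastoma protein and frees E2F factors, which switch on many replication genes. Most hepatocytes of an adult liver rest outside the cycle, and Ccnd1 is a classic marker of their return to it. The mice here were 4 weeks old, and the share of their hepatocytes in the cycle was not measured here.

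The promoters of the genes that moved with dose are shown because these genes are textbook targets of E2F factors and of NF-Y, the factor that binds CCAAT boxes. The sequences are those of RefSeq for GRCm38.p6, in which 8 of the 10 genes have an entry. Each run holds the 180 bases before the RefSeq transcription start, written 5′ to 3′ on the strand of the gene. By the gene positions given below, which are from another annotation, the Mcm7 run lies inside its gene and the Tk1 run overlaps its gene. For these genes the motifs found depend on the start used. Mcm7 has another RefSeq entry, further inside the gene, which is not shown. Capitals mark an E2F-type motif (TTTCCCGC, TTTGGCGC, TTTGCCGC or TTTCGCGC) or a CCAAT box, on either strand, so that ATTGG is a CCAAT box read from the other strand. For Mcm2 the run is chr6:88898781-88898960 (minus strand), for Mcm3 chr1:20820313-20820492 (minus), for Mcm6 chr1:128359706-128359885 (minus), for Mcm7 chr5:138171884-138172063 (minus), for Tk1 chr11:117826015-117826194 (minus) and for Rrm1 chr7:102441515-102441694 (plus).
Mcm2: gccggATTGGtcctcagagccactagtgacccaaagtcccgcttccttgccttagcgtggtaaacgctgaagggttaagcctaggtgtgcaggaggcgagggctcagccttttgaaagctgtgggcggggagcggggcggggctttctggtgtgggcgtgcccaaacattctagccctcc
Mcm3: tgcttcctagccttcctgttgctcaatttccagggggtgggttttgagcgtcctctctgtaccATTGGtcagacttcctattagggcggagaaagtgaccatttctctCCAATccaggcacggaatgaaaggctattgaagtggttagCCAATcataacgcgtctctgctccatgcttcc
Mcm6: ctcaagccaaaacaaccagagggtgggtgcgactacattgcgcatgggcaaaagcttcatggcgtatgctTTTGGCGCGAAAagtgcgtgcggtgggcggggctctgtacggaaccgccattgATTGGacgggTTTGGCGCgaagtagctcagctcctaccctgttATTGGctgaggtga
Mcm7: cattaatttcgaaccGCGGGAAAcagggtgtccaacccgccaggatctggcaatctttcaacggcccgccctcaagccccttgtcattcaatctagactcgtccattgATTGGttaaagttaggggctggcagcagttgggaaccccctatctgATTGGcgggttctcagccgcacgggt
Rrm1: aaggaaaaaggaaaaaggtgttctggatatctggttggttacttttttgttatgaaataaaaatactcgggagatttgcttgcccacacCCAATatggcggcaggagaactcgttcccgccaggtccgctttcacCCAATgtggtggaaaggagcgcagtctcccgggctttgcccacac
Tk1: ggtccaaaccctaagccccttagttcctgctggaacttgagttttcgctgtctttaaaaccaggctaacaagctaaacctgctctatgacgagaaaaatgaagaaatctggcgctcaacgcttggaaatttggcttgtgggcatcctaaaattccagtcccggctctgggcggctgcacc

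Over the whole window of the table (250 bases before to 50 bases after the start), 4 of the 8 genes held an E2F-type motif, namely Mcm3, Mcm5, Mcm6 and Mcm7, against 2.265% of the 32851 promoters in the table. In Mcm6, TTTGGCGC at position -110 and TTTCGCGC read from the other strand at -106 overlap in 1 run, and another TTTGGCGC lies at -47, counted from the start. Mcm5 held the same overlapping pair in the other order, at -153 and -149. Mcm7 held TTTCCCGC on the other strand at -165 and TTTCGCGC after the start at 17, and Mcm3 held its E2F-type motifs only after the start, at 20 and 39. A CCAAT box was found in 7 of the 8 genes, all but Tk1, against 37.41% of all promoters. TTTGAA, the core of the cell cycle homology region, was found in Mcm2 alone, at -70, against 17.89% of all promoters. These are matches of letters in a fixed window and say nothing of binding in these livers.

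In FROZ the 10 genes did not move as a block. Ccnd1 rose at 313 and 427 mg/kg-d, and Tk1 fell at all 3 doses. Mcm2, Mcm3, Mcm7 and Rrm1 rose at 313 mg/kg-d and had no call at 427 mg/kg-d. Of these, only Mcm2 differed between 313 and 427 mg/kg-d when the 2 doses were compared directly. With reads per library (depth) added to the model as a covariate, Mcm2, Mcm3 and Mcm7 lost their calls at 313 mg/kg-d. Rrm1 kept its call. The values are CPM, the reads on a gene per 1 M reads on all listed genes of the library, and changes were tested on log2(CPM + 1) by limma with Benjamini-Hochberg adjustment over all genes of the table (FDR). A gene passed at an FDR under 0.05, and a differentially expressed gene (DEG) also had a fold change above 2 on that scale. At 198 mg/kg-d 1 of the 10 genes passed, as lower, where 1.56% of all genes did (1.12% up and 0.443% down). At 313 mg/kg-d 6 of the 10 passed, 5 up and 1 down, where 26.7% of all genes did (20.5% up and 6.15% down). At 427 mg/kg-d 2 of the 10 passed, 1 up and 1 down, where 30.1% of all genes did (22.7% up and 7.33% down). The median log2 fold change of the 10 genes was 0.23, 0.51 and 0.08 at the 3 doses in rising order, against 0.07, 0.11 and 0.10 for all genes. Under another scaling, in which each library is divided by its median ratio to the average library, the median of all genes moved to 0.00 at 313 mg/kg-d and to -0.01 at 427 mg/kg-d, the calls over all genes became 1158 up and 1223 down at 313 mg/kg-d in place of 2317 and 693, and 1423 up and 1424 down at 427 mg/kg-d in place of 2565 and 826. Under that scaling 4 of the 10 genes passed at 313 mg/kg-d, 3 up and 1 down.

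**Figure D1:**
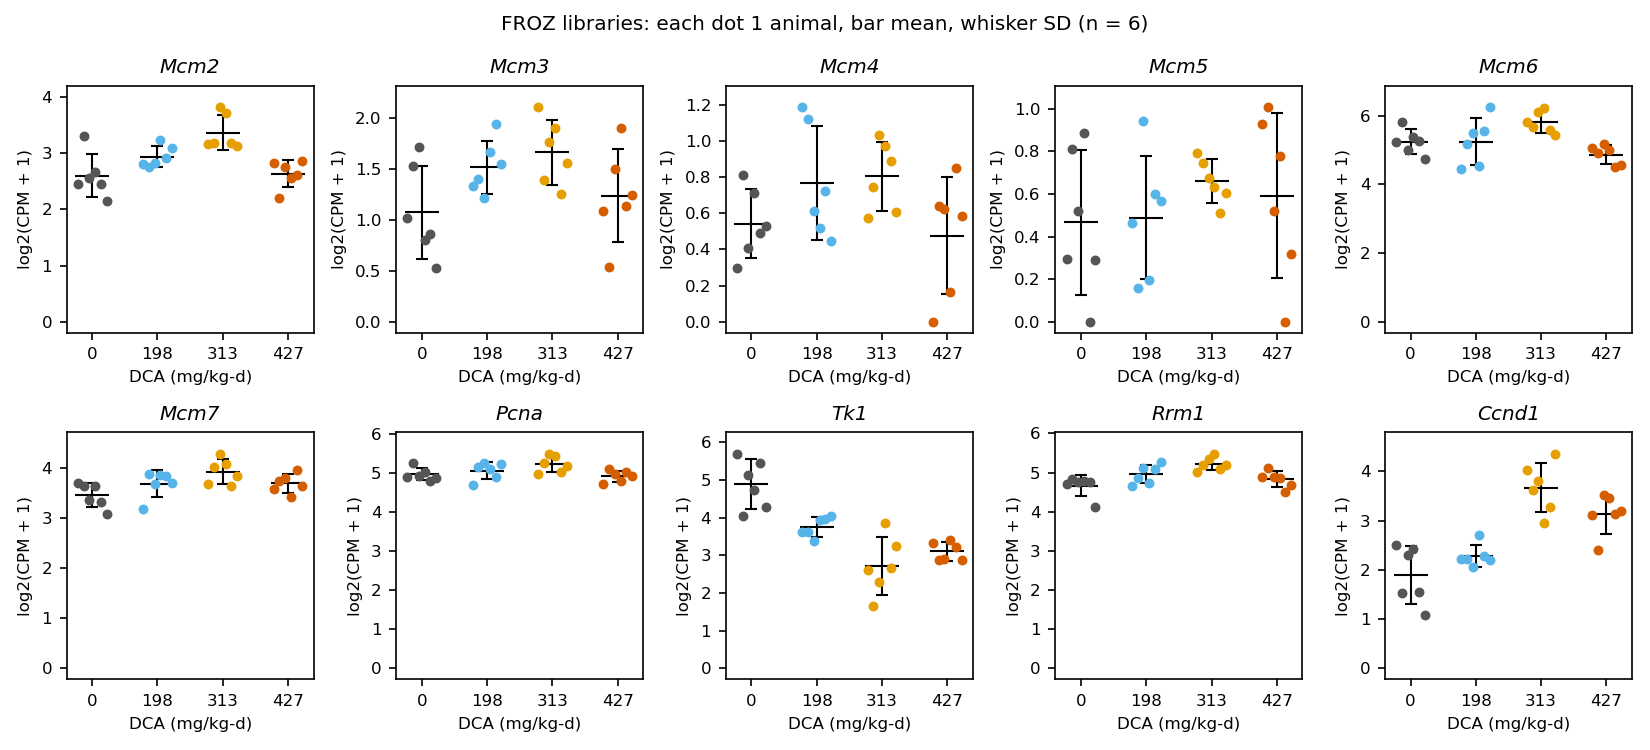
Levels of the 10 genes in FROZ livers as log2(CPM + 1) by DCA dose in mg/kg-d, with 1 dot for each animal, a bar for the mean and whiskers for the SD (n = 6 per dose). Ccnd1 and Rrm1 at 313 mg/kg-d lie wholly above the vehicle controls, Tk1 at 313 and 427 mg/kg-d lies wholly below them, and Mcm2 and Mcm6 are lower in all 6 animals at 427 than in any of the 6 at 313 mg/kg-d.

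Reads on listed genes, recovered from the step between low values, numbered 6.69 to 9.84 M per FROZ library and 1.83 to 6.01 M per FFPE library, so 1 read was worth 0.102 to 0.150 CPM in FROZ and 0.166 to 0.546 CPM in FFPE. FROZ libraries had a median of 9.11 M reads at 0, 7.79 M at 198, 7.53 M at 313 and 8.60 M at 427 mg/kg-d, so depth moved with dose. FFPE libraries had medians of 5.28, 3.38, 3.82 and 5.10 M reads in the same order of doses, and medians of 285, 986, 634.5 and 136.5 of 6673 genes at 0. Hepatocyte markers (9 of 10 listed in FROZ) summed to 26504 to 42109 CPM per library. The part of depth in the results was tested only by adding it to the model as a covariate, which is given beside each call it ended.

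Ccnd1 (ENSMUSG00000070348, chr7:144929931-144939925, minus strand, GRCm38) had the largest increase of the 10 genes on the log2(CPM + 1) scale. Its lowest, median and highest FROZ values were 1.11, 2.92 and 4.69 CPM in the controls, 3.16, 3.66 and 5.49 CPM at 198, 6.75, 12.1 and 19.4 CPM at 313, and 4.26, 7.91 and 10.4 CPM at 427 mg/kg-d. All 6 animals at 313 mg/kg-d were above every control, whereas at 427 mg/kg-d 1 animal, at 4.26 CPM, fell within the control range. Against the controls the log2 fold change was 0.38 (SE 0.24, FDR 0.426) at 198 mg/kg-d. It was 1.77 (SE 0.24, FDR 4.27e-06), a fold of 3.42 on the CPM + 1 scale, at 313 mg/kg-d. It was 1.23 (SE 0.24, FDR 0.000242), a fold of 2.35 on that scale, at 427 mg/kg-d. Ccnd1 was thus a DEG at both higher doses and Tk1 at all 3, where 0.106% of all genes at 198, 2.31% at 313 and 3.5% at 427 mg/kg-d were DEGs. From 198 to 427 mg/kg-d Ccnd1 also rose, by 0.85 (FDR 0.0135), and it was the only one of the 10 genes to pass there, against 16.6% of all genes (11.1% up and 5.46% down). The highest mean was at 313 mg/kg-d, but the step down to 427 mg/kg-d did not pass (log2 fold change -0.54, 95% CI -1.03 to -0.05, FDR 0.233). Ccnd1 averaged 2.98 CPM in the controls, 12.4 CPM at 313 and 8.01 CPM at 427 mg/kg-d. The FROZ values of Ccnd1 rest on 10 to 149 reads per library.

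Tk1 (ENSMUSG00000025574, chr11:117815526-117826092, minus strand, GRCm38) was the one gene of the 10 to fall. Its lowest, median and highest FROZ values were 15.5, 30.2 and 50.8 CPM in the controls, 9.34, 12.8 and 15.6 CPM at 198, 2.17, 5.23 and 13.6 CPM at 313, and 6.35, 7.44 and 9.69 CPM at 427 mg/kg-d. The highest animal at 198 mg/kg-d reached just past the lowest control, and both higher doses lay wholly below the controls. Groups that did not overlap were seen for 11.5% of all genes at 313 mg/kg-d (9.14% higher and 2.39% lower) and for 14.7% at 427 mg/kg-d (3.27% lower). The fall at 198 mg/kg-d was called at a log2 fold change of -1.14 (SE 0.28, FDR 0.0337), and the call was lost with depth as a covariate (FDR 0.241) or when any 1 of 9 animals was left out. Tk1 fell by 2.17 (SE 0.28, FDR 1.99e-06) at 313 mg/kg-d, a fold of 4.50 on the CPM + 1 scale. At 427 mg/kg-d it fell by 1.79 (SE 0.28, FDR 1.51e-05), a fold of 3.46 on that scale. Its mean was 31.4 CPM in the controls, 6.46 CPM at 313 and 7.73 CPM at 427 mg/kg-d. Tk1 lies across from Afmid and Gm20708, which overlap it on the other strand, and the strand used in counting was not given in the sources used here.

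Red cell markers fell beside Tk1. The summed CPM of the 7 listed of 8 erythroid markers in FROZ ranged from 61.7 to 131 in the controls, from 56.1 to 70.5 at 198, from 32.0 to 58.3 at 313 and from 37.8 to 84.9 at 427 mg/kg-d. Of these 7 markers 3 passed as lower at 313 mg/kg-d and 3 at 427 mg/kg-d, where 6.15% and 7.33% of all genes did. None passed as higher at any dose. The hemoglobin chain gene Hba-a2 fell by 1.08 on the log2 scale at 313 mg/kg-d and Alas2, which starts heme synthesis in red cell precursors, fell by 1.05 at 427 mg/kg-d. Klf1, a defining factor of red cell precursors, is not listed in either table. The part of the red cell markers in the fall of Tk1 was not tested, and in bulk tissue fewer cells of a type and less RNA per cell cannot be told apart.

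Rrm1 (ENSMUSG00000030978, chr7:102441695-102469771, plus strand, GRCm38) rose at 313 mg/kg-d. FROZ values (lowest, median, highest) were 16.4, 26.0 and 27.5 CPM in the controls, 24.4, 30.7 and 37.6 CPM at 198, 31.4, 35.8 and 43.5 CPM at 313, and 21.9, 28.3 and 33.4 CPM at 427 mg/kg-d. All 6 animals at 313 mg/kg-d were above every control, and the other doses overlapped the controls. Rrm1 had log2 fold changes of 0.30 (FDR 0.210) at 198, 0.56 (SE 0.12, FDR 0.00141) at 313 and 0.16 (FDR 0.353) at 427 mg/kg-d. So the salvage enzyme gene and the reductase gene moved in opposite directions at 313 mg/kg-d.

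Of the 6 helicase genes, Mcm2, Mcm3 and Mcm7 rose at 313 mg/kg-d and none passed at 198 or 427 mg/kg-d. All of these calls at 313 mg/kg-d were lost with depth as a covariate. At an unadjusted p under 0.05 the counts by limma were 1, 4 and 0 of 6 at the 3 doses, where 17.1%, 37.3% and 39.7% of all genes had one, so the count at 198 mg/kg-d was near the share of all genes and that at 427 mg/kg-d below it. The median log2 fold change of the 6 was 0.23, 0.52 and 0.08. All 6 estimates were above 0 at 198 and at 313 mg/kg-d, and 4 of 6 at 427 mg/kg-d. The median of all genes was above 0 too, at 0.07, 0.11 and 0.10. At 198 mg/kg-d Mcm5 (0.02) and Mcm6 (0.003) lay below that median.

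Mcm2 (ENSMUSG00000002870, chr6:88883474-88898780, minus strand, GRCm38) had the largest log2 fold change at 313 mg/kg-d among the helicase genes, on the log2(CPM + 1) scale, which understates the change of low genes. On mean CPM, Mcm2 went from 5.23 to 9.47 between 0 and 313 mg/kg-d and Mcm3 from 1.20 to 2.24, so the order of these genes depends on the scale. Its lowest, median and highest FROZ values were 3.43, 4.68 and 8.80 CPM in the controls, 5.75, 6.27 and 8.38 CPM at 198, 7.68, 8.03 and 13.0 CPM at 313, and 3.59, 5.40 and 6.22 CPM at 427 mg/kg-d. A single control, at 8.80 CPM, overlapped the group at 313 mg/kg-d, and at 427 mg/kg-d all 6 animals were back within the control range. Mcm2 rose by 0.77 on the log2 scale at 313 mg/kg-d (SE 0.17, FDR 0.00107). With depth as a covariate the estimate was 0.50 and the call was lost (FDR 0.0627). Within the doses the deviations of Mcm2 ran against depth, with r = -0.52 between log2(CPM + 1) and log10 reads over 24 libraries.

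Mcm7 (ENSMUSG00000029730, chr5:138164583-138172422, minus strand, GRCm38) had lowest, median and highest FROZ values of 7.53, 10.4 and 12.0 CPM in the controls, 8.14, 12.7 and 13.8 CPM at 198, 11.5, 14.4 and 18.5 CPM at 313, and 9.81, 12.0 and 14.7 CPM at 427 mg/kg-d. The groups at 0 and 313 mg/kg-d overlapped between 11.5 and 12.0 CPM. Its log2 fold change at 313 mg/kg-d was 0.47 (SE 0.14, FDR 0.0127). The call was lost under median-ratio scaling (FDR 0.0655) and with depth as a covariate (FDR 0.263). Of the 50-base windows of its transcripts 18.1% are shared with other genes, mostly the gene model Gm5487. TempO-Seq reads come from the short target of a probe, and the probe sequences were not given. Whether the target lies in a shared window was not tested.

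Mcm3 (ENSMUSG00000041859, chr1:20802968-20820312, minus strand, GRCm38) was measured from 4 to 27 reads per library. FROZ values (lowest, median, highest) were 0.443, 0.922 and 2.29 CPM in the controls, 1.32, 1.78 and 2.85 CPM at 198, 1.38, 2.17 and 3.30 CPM at 313, and 0.449, 1.28 and 2.75 CPM at 427 mg/kg-d, with overlap between all doses. The log2 fold change at 313 mg/kg-d was 0.59 (SE 0.21, FDR 0.0369), and the call was lost under median-ratio scaling (FDR 0.0763), with depth as a covariate (FDR 0.301) or when any 1 of 7 animals was left out.

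Mcm6 (ENSMUSG00000026355, chr1:128331590-128359664, minus strand, GRCm38) did not pass against the controls at any dose, though at 313 mg/kg-d it passed when any 1 of animals 4, 49, 52, 54 and 78 was left out (FDR 0.0294 to 0.0493). FROZ values (lowest, median, highest) were 25.8, 36.9 and 55.8 CPM in the controls, 20.7, 39.8 and 74.5 CPM at 198, 42.7, 52.2 and 73.9 CPM at 313, and 21.6, 30.1 and 35.3 CPM at 427 mg/kg-d. The group at 198 mg/kg-d spanned the ranges of all the others, with 1 animal at 74.5 CPM. The log2 fold change was 0.57 (SE 0.22, FDR 0.0627) at 313 and -0.37 (SE 0.22, FDR 0.228) at 427 mg/kg-d. Mcm4 and Mcm5 were too low to follow, at 0 to 10 reads and 0 to 9 reads per FROZ library. Mcm4 spanned 0 to 1.27 CPM and Mcm5 0 to 1.01 CPM over all doses, and a listed value of 0 allows up to 3 reads. Their log2 fold changes lay between -0.06 and 0.26 for Mcm4 and between 0.02 and 0.19 for Mcm5, none past the threshold.

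Pcna (ENSMUSG00000027342, chr2:132249162-132253314, minus strand, GRCm38) did not pass at any dose with all animals, and at 313 mg/kg-d it passed without animal 4 (FDR 0.0358) or 73 (FDR 0.0443). Its lowest, median and highest FROZ values were 27.1, 29.5 and 37.7 CPM in the controls, 25.1, 34.0 and 37.5 CPM at 198, 30.5, 36.5 and 44.1 CPM at 313, and 25.3, 30.2 and 33.3 CPM at 427 mg/kg-d, with overlap throughout. Its log2 fold change at 313 mg/kg-d was 0.25 (95% CI 0.03 to 0.48, FDR 0.0817) and at 427 mg/kg-d -0.05 (95% CI -0.27 to 0.17, FDR 0.770). Of the 50-base windows of its transcripts 19.1% are shared with other genes, mostly the pseudogene Pcna-ps2. Whether the target of its probe lies in a shared window was not tested.

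All of the 10 genes but Tk1 had their highest FROZ mean at 313 mg/kg-d, so the 2 highest doses were compared directly, a comparison added after the values were seen. Mcm2 fell by 0.73 (SE 0.17, FDR 0.0145) and Mcm6 fell by 0.94 (SE 0.22, FDR 0.0184), where 3.07% of all genes passed (1.73% up and 1.34% down). For both genes the 6 animals at 427 mg/kg-d lay wholly below the 6 at 313 mg/kg-d, which held for 2.05% of all genes in either direction and for 0.798% as lower. The call for Mcm2 was lost with depth as a covariate (FDR 0.0680), and that for Mcm6 without animal 101 (FDR 0.0515) or animal 102 (FDR 0.0501). Rrm1 at -0.40 (FDR 0.0782), Pcna at -0.30 (FDR 0.123), Mcm3 at -0.43 (FDR 0.286) and Mcm7 at -0.23 (FDR 0.386) did not pass. In a straight line on dose, Ccnd1 rose by 0.36 per 100 mg/kg-d (SE 0.07, FDR 0.000206) and Tk1 fell by 0.48 per 100 mg/kg-d (SE 0.07, FDR 1.15e-05). None of the other 8 genes passed on the slope, where 32.2% of all genes did (24.4% up and 7.73% down). Of the 10, 3 had an unadjusted p under 0.05, with Mcm7 the third at 0.07 per 100 mg/kg-d (FDR 0.0911), which is below the 41% of all genes that had one.

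**Figure D2:**
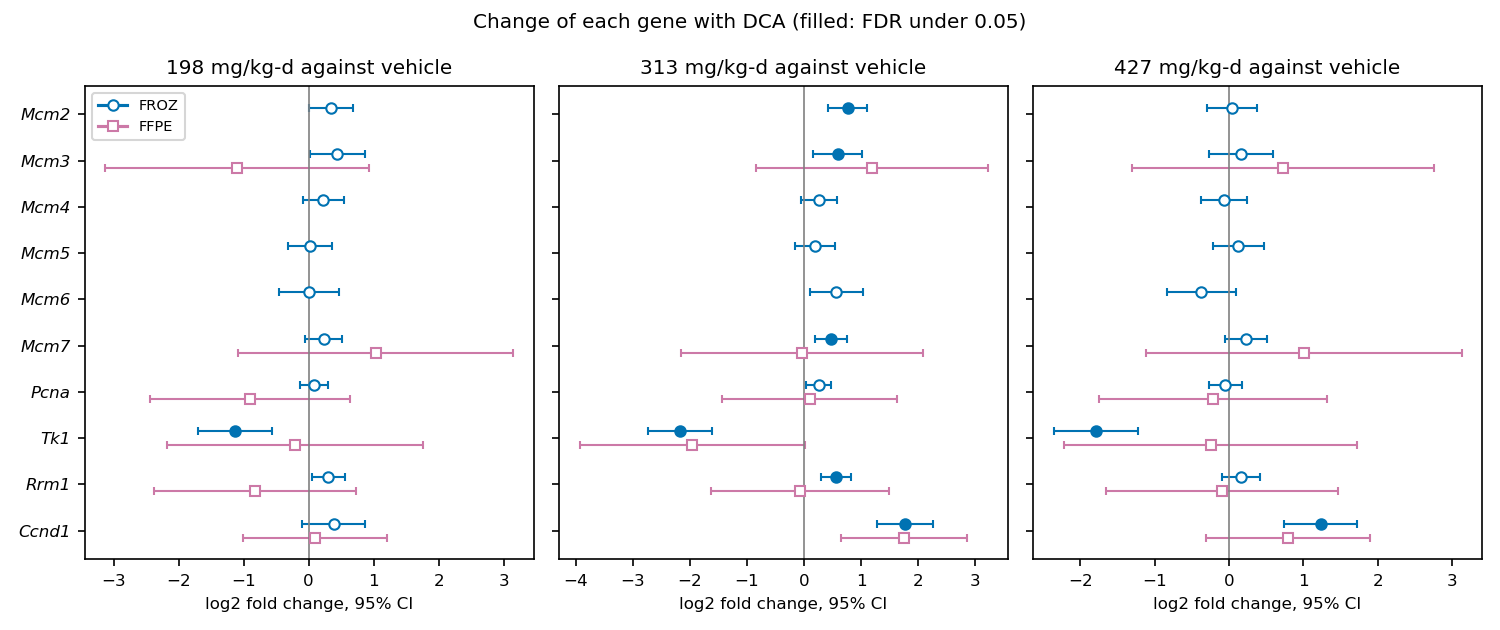
Log2 fold change of each gene against the vehicle controls with its 95% confidence interval, at 198, 313 and 427 mg/kg-d, for FROZ (circles) and FFPE (squares). Symbols are filled at an FDR under 0.05, all filled symbols are FROZ, and the FFPE intervals are several times wider. The scale of the horizontal axis differs between panels.

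In FFPE none of the 6 listed genes passed at any dose by limma. The share of all genes that passed was 0.0599% at 198, 1.08% at 313 and 2.41% at 427 mg/kg-d, 3.7% from 198 to 427, 0.375% from 313 to 427 and 2.17% on the slope. At an unadjusted p under 0.05 there was 1 of 6 at 313 mg/kg-d, Ccnd1, and none at 198 or 427 mg/kg-d, where 11.7% of all genes had one at 313, 11.8% at 198 and 8.71% at 427 mg/kg-d. On the slope it was also 1 of 6, Ccnd1 again, against 9.16% of all genes. A count of 1 of 6 is near these shares. FFPE levels are shares of another set of genes than FROZ levels, so levels were not compared between the tables.

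Ccnd1 in FFPE had lowest, median and highest values of 15.8, 26.6 and 60.4 CPM in the controls, 9.36, 35.6 and 61.5 CPM at 198, 30.4, 110.1 and 159.9 CPM at 313, and 9.44, 63.2 and 84.3 CPM at 427 mg/kg-d. Of the 6 animals at 313 mg/kg-d, 5 were above every control. The log2 fold change was 1.75 (95% CI 0.64 to 2.85, FDR 0.131) at 313 and 0.79 (95% CI -0.31 to 1.90, FDR 0.862) at 427 mg/kg-d. Animal 76 had the lowest Ccnd1 of the group at 313 mg/kg-d in both FROZ and FFPE, and animal 98 that of the group at 427 mg/kg-d in both.

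Tk1 in FFPE had lowest, median and highest values of 0, 24.1 and 61.0 CPM in the controls, 0.546, 18.2 and 52.2 CPM at 198, 0, 6.06 and 12.0 CPM at 313, and 5.57, 13.5 and 33.3 CPM at 427 mg/kg-d. The group at 313 mg/kg-d was below 5 of the 6 controls, and the remaining control was listed at 0. The log2 fold change was -1.96 (95% CI -3.93 to 0.01, FDR 0.432) at 313 and -0.25 (95% CI -2.22 to 1.73, FDR 1.000) at 427 mg/kg-d. The erythroid markers listed in FFPE (5 of 8) summed to a median of 201 CPM in the controls and 284, 123 and 113 CPM at the 3 doses in rising order.

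The other FFPE genes scattered widely within a dose. Mcm3 was at 0 in 3 of 6 animals at 198 mg/kg-d and reached 63.8 CPM in another animal of that group. Mcm7 spanned 0 to 63.7 CPM at 313 mg/kg-d, and Rrm1 spanned 0 to 107.7 CPM at 198 mg/kg-d. Pcna spanned 0 to 65.0 CPM at 198 and 8.12 to 72.1 CPM at 313 mg/kg-d. Rrm1 and Mcm7, which rose in FROZ at 313 mg/kg-d, had an FFPE log2 fold change there of -0.07 (95% CI -1.62 to 1.49) and -0.03 (95% CI -2.15 to 2.09). Mcm3, which also rose in FROZ at that dose, stood at 1.19 in FFPE (95% CI -0.84 to 3.21, FDR 0.698). These intervals hold the FROZ estimates as well as 0.

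**Figure D3:**
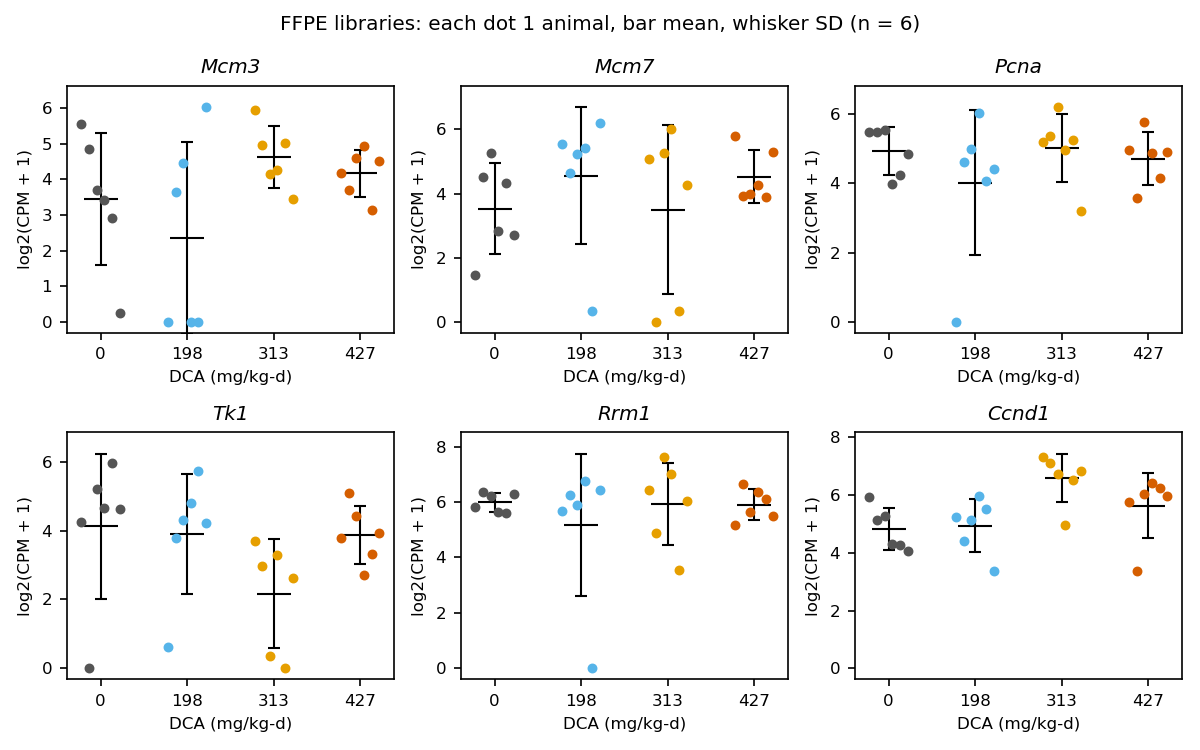
Levels of the 6 listed genes in FFPE livers as log2(CPM + 1) by DCA dose in mg/kg-d, with 1 dot for each animal, a bar for the mean and whiskers for the SD (n = 6 per dose). Single animals lie at or near 0 in groups whose other animals are well above it, as for Rrm1, Pcna and Mcm7 at 198 mg/kg-d.

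Whether DCA acted unequally in the 2 preservations was tested on the difference between the FFPE and FROZ values of each mouse. None of the 6 genes passed at any dose by limma, where 0.0303% of the 6591 shared genes passed at 198 and at 427 mg/kg-d and 0% at 313 mg/kg-d. None of the 6 had an unadjusted p under 0.05 either, where 11.4%, 7.39% and 2.22% of the shared genes had one at 198, 313 and 427 mg/kg-d. For Ccnd1 at 313 mg/kg-d the difference of the log2 fold changes was -0.02 (95% CI -0.87 to 0.82), and for Tk1 it was 0.21 (95% CI -1.54 to 1.97). For Tk1 at 427 mg/kg-d it was 1.54 (95% CI -0.21 to 3.30, FDR 1.000). Differences of up to these bounds are not excluded for these genes.

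The rest of the replication and cell cycle pathway was followed in fixed lists that hold none of the 10 genes. At 313 mg/kg-d FROZ livers had more calls in the G2/M and mitosis list than in any other, with 19 of 28 listed genes up and none down. Of the replication fork genes 12 of 31 were up, of the G1/S control genes 8 of 29, of the origin licensing and firing genes 6 of 20, and of the nucleotide supply genes 1 of 18, with none down in any of these 4 lists. Over all genes 20.5% passed as higher there, so the G1/S and origin lists lay near that share and the nucleotide list below it. At 198 mg/kg-d no gene of the 5 lists passed by limma, and 0 of 28 G2/M, 9 of 31 fork, 4 of 29 G1/S, 3 of 20 origin and 1 of 18 nucleotide genes had an unadjusted p under 0.05, against 17.1% of all genes. The median log2 fold changes at 313 mg/kg-d were 0.90 for G2/M and mitosis, 0.33 for origin licensing and firing, 0.31 for the fork, 0.17 for G1/S control and 0.11 for nucleotide supply, against 0.11 for all genes. Under median-ratio scaling the calls at 313 mg/kg-d were 13 up for G2/M, 5 up for the fork, 4 up for G1/S, 2 up for origins and 1 down for nucleotide supply. With depth as a covariate they were 14, 7, 6, 2 and 0 up in the same order.

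At 427 mg/kg-d the share of genes that passed as higher was lower in each of the 5 lists than over all genes (22.7%). The calls were 4 up for G2/M and mitosis, 4 up for the fork, 6 up and 1 down for G1/S control, 2 up and 1 down for nucleotide supply and 1 up for origins. Under median-ratio scaling they were 2 up for G2/M, 2 down for the fork, 4 up and 3 down for G1/S, 1 up and 2 down for nucleotide supply and 1 down for origins, a shift that the calls over all genes made too. Their medians were 0.41, 0.10, -0.10, 0.04 and 0.09 in the order G2/M, fork, G1/S, nucleotide supply and origins, against 0.10 for all genes.

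**Figure D4:**
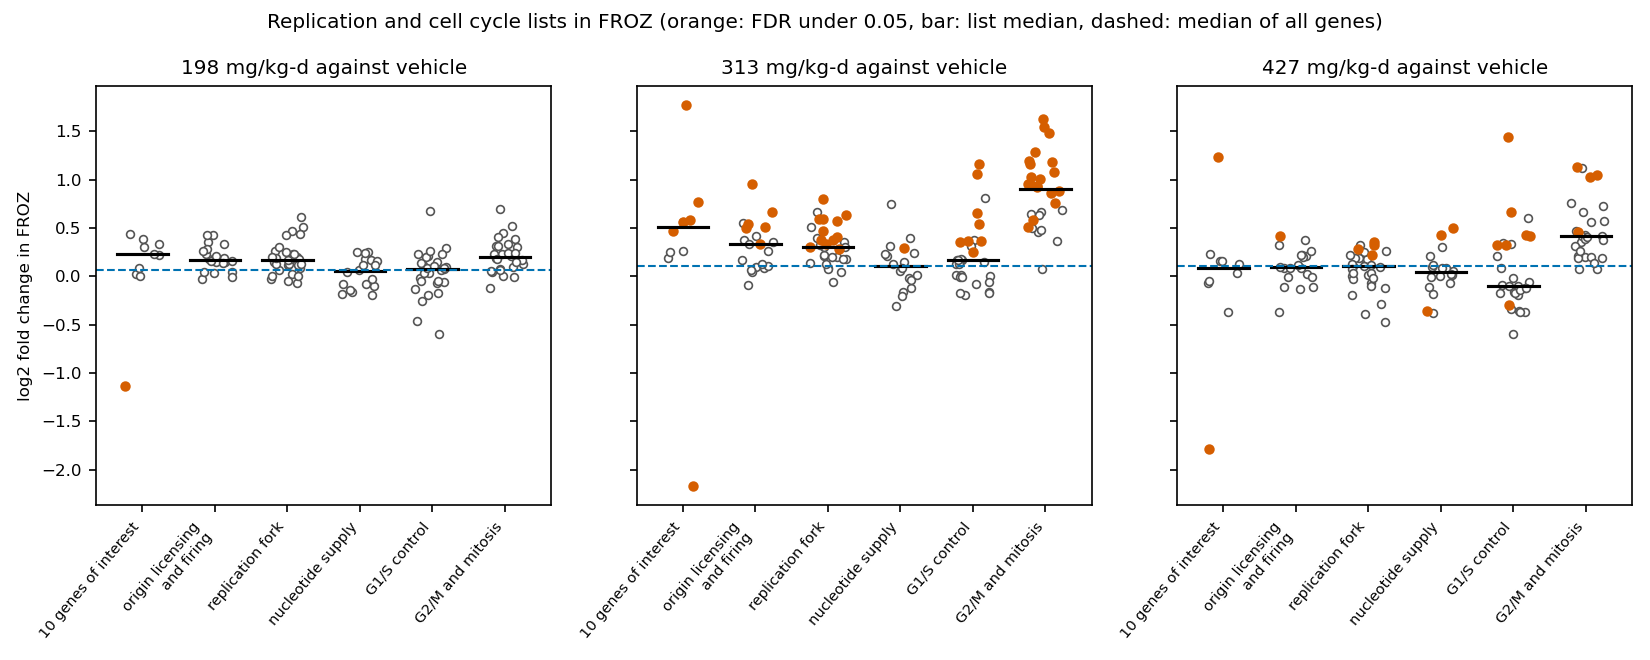
Log2 fold change against the vehicle controls in FROZ for each gene of the 10 described here and of the 5 pathway lists, at 198, 313 and 427 mg/kg-d. Filled points passed at an FDR under 0.05, the black bar is the median of the list, and the dashed line is the median of all genes (0.07, 0.11 and 0.10). The G2/M and mitosis list stands highest at 313 mg/kg-d, with a median of 0.90.

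Among the mitotic genes, Cdc20, an activator of the anaphase-promoting complex, rose by 1.63 (FDR 0.00416) at 313 and 1.13 (FDR 0.0381) at 427 mg/kg-d. Kif20a, a kinesin of cytokinesis, rose by 1.54 and 1.05 at the same doses. Ccnb2, a mitotic cyclin, rose by 1.19 and 1.03, and Nek2, a centrosome kinase, by 0.51 and 0.46. In FFPE Cdc20 had log2 fold changes of 2.36 (SE 0.82, FDR 0.200) at 313 and 1.94 (SE 0.82, FDR 0.398) at 427 mg/kg-d, and Kif20a of 3.42 (SE 1.03, FDR 0.114) and 1.59 (SE 1.03, FDR 0.827). Ccnb2 and Nek2 are not listed in FFPE.

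Among the G1/S genes, Myc, a growth-driving transcription factor, rose by 1.44 (SE 0.37, FDR 0.00389) at 427 mg/kg-d. E2f3, an activating E2F factor, rose by 0.66, Cdk6, a partner of cyclin D1, by 0.43, and Tfdp1, the dimer partner of E2F factors, by 0.41 at that dose. Ccnh, the cyclin of the CDK-activating kinase, fell by 0.30 (FDR 0.0271). In FFPE at 427 mg/kg-d the log2 fold changes were 2.33 (SE 1.09) for Myc, 0.58 (SE 0.27) for Cdk6, -0.45 (SE 0.73) for Tfdp1 and 0.74 (SE 0.97) for Ccnh, none past the threshold. Ccne1, the cyclin that follows cyclin D1, was named after its values were seen. It rose by 1.16 (SE 0.27, FDR 0.00228) at 313 mg/kg-d and stood at -0.09 (FDR 0.834) at 427 mg/kg-d.

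Among the replication genes at 427 mg/kg-d, the polymerase epsilon subunits Pole3 and Pole4 rose by 0.35 and 0.22, the RNase H2 subunit Rnaseh2c by 0.32, the clamp loader subunit Rfc1 by 0.29 and the origin recognition subunit Orc5 by 0.42. In FFPE the log2 fold changes at that dose were -0.60 (SE 0.95) for Pole3, -0.14 (SE 0.30) for Pole4, 0.57 (SE 0.75) for Rnaseh2c and 0.08 (SE 1.02) for Rfc1. Under median-ratio scaling no gene of the fork or origin lists passed as higher at 427 mg/kg-d. Gins2, a subunit of the active helicase, and Lig1, the ligase that joins Okazaki fragments, were named after their values were seen. Gins2 rose by 0.95 (SE 0.22, FDR 0.00215) at 313 mg/kg-d and stood at 0.26 (FDR 0.404) at 427 mg/kg-d, and Lig1 rose by 0.80 (SE 0.22, FDR 0.00836) and stood at 0.17 (FDR 0.599). Of the nucleotide genes at 427 mg/kg-d, Dctpp1, which clears modified nucleotides, rose by 0.50 and Paics, of purine synthesis, by 0.43, and 1 other gene passed as lower. Under median-ratio scaling 1 gene of this list passed as higher and 2 as lower. In FFPE Paics stood at 1.15 (SE 0.90).

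In FFPE none of the listed pathway genes passed by limma at any dose (7 origin, 18 fork, 10 nucleotide, 16 G1/S and 7 G2/M genes were listed). At 313 mg/kg-d 2 of the G2/M, 2 of the nucleotide and 1 of the G1/S genes had an unadjusted p under 0.05. None of the other lists did, against 11.7% of all genes. At 198 mg/kg-d there were 3 of the G1/S, 1 of the origin and 1 of the G2/M genes, against 11.8%. At 427 mg/kg-d there were 2 of the G1/S and 1 of the G2/M genes, against 8.71%. The 7 G2/M genes had a median log2 fold change of 1.06 at 313 and 1.41 at 427 mg/kg-d, against -0.12 and 0.18 for all FFPE genes.

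Some markers of other cells moved at the doses where these genes did. Neutrophil markers S100a8 and Retnlg, the 2 listed of 8, passed as higher at 313 mg/kg-d. Their sum was 0.109 to 0.886 CPM in the controls and 0.651 to 8.54 CPM at 313 mg/kg-d. The lowest control sum was 1 read. Of the 8 listed Kupffer cell markers 6 passed as lower at 427 mg/kg-d and none at 198 or 313 mg/kg-d, with sums of 234 to 312 CPM in the controls and 146 to 218 CPM at 427 mg/kg-d. B cell markers (2 of 6 listed) and T and NK cell markers (5 of 8 listed) had medians of at most 1.93 and 5.51 CPM at any dose, but single libraries stood far above, with sums of up to 21.8 and 30.6 CPM at 198 and 13.7 and 24.4 CPM at 427 mg/kg-d. Hepatocyte markers summed to a median of 36667 CPM in the controls and 29495 CPM at 313 mg/kg-d, with 3 of 9 lower and none higher there. At 427 mg/kg-d 1 of 10 endothelial and 2 of 9 stellate cell markers passed as lower and 1 of 5 cholangiocyte markers as higher, and at 313 mg/kg-d the calls were 1 lower, 1 higher and 2 lower, and 1 higher. For comparison, 6.15% and 7.33% of all FROZ genes passed as lower at the 2 highest doses, in rising order. The shares that passed as higher were 20.5% and 22.7%. The counts of endothelial and cholangiocyte markers were near these shares. The part of these cell types in the results was not tested.

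Across animals of the same dose, FROZ levels were compared between genes with the mean of each dose taken out, over 24 libraries and the 5867 genes that averaged 10 CPM or more. The mean of Mcm2 to Mcm7 gave each gene equal weight, also Mcm4 and Mcm5, which were too low to follow. Most like this mean were Pole (r = 0.73, rho = 0.72), Parp1 (r = 0.72, rho = 0.66), Fam13a (r = 0.72, rho = 0.65), Hells (r = 0.72, rho = 0.75) and Rpa3 (r = 0.72, rho = 0.76). For Ccnd1 they were Timm13 (r = 0.72, rho = 0.70), Nsun2 (r = 0.72, rho = 0.70), Tubb5 (r = 0.71, rho = 0.67), Rrbp1 (r = 0.71, rho = 0.75) and Creb3l2 (r = 0.69, rho = 0.71). Among the 45 pairs of the 10 genes r ranged from -0.33 to 0.80. Mcm6 and Rrm1 were most alike (r = 0.80, rho = 0.85, and r = 0.76 without the 2 libraries with the most extreme Mcm6), followed by Mcm7 and Pcna (r = 0.73, rho = 0.70, and r = 0.67 without the 2 libraries with the most extreme Mcm7). Deviations of Mcm7 and Pcna ran against log10 reads, at r = -0.49 and -0.46, whereas those of Mcm6 and Rrm1 did not, at 0.06 and 0.04. These are the highest values out of many, share libraries and depth, and are given as descriptions.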

How the data were processed

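TempO-Seq was measured in FROZ and FFPE livers of 24 mice. Per the labels and the study's methods, the authors aligned reads to mm10 with STAR 2.6 in Partek, counted genes by expectation maximization, removed genes of low geometric mean, scaled each table to CPM and deposited log2(CPM + 1). CPM were recovered as 2 to that power minus 1. Filtering and scaling were done per table, so levels were tested only within a table. The step between low values gave the CPM of 1 read (84.1 to 97.1% of low values lay within 0.05 reads of a whole number), and reads per library bound the precision. Reads carry no molecular identifiers, so floors cover counting error only.

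Groups are the labelled doses within each preservation. Limma 3.58.1 in R 4.3.3 (lmFit, eBayes with trend) took log2(CPM + 1) from all 24 libraries of 1 table. Dose was a factor, or a number for slopes, and the fit was checked on simulated data. In that check, for 427 mg/kg-d against vehicle in FFPE, 13% of 100 genes given a log2 change of 1 were recovered. At a log2 change of 2 the FFPE share was 49%. In FROZ the shares were 96% and 100%. The changed genes were drawn only from those with a mean log2(CPM + 1) above that of 10 CPM, and the simulated noise was normal. The shares thus do not cover lower genes, such as Ccnd1, Mcm2, Mcm3, Mcm4 and Mcm5 in FROZ. Preservations were compared on the per-animal difference, FFPE minus FROZ. The labels pair the libraries by animal. Over 4815 genes deviations from the dose means had a median correlation of 0.128 for same-animal libraries and -0.0232 for different animals of a dose. Nothing states that animals were housed apart, so p-values measure the spread between animals. The 10 genes and all lists were chosen with earlier results of these data known. The genes named are the 10, up to 4 risers and 4 fallers of each list at 427 mg/kg-d in FROZ, the 5 genes most like the Mcm mean or Ccnd1, and those said to be named after their values were seen. A gene that the rule names is not reported here. Positions and overlaps are from GENCODE vM21 for GRCm38, and promoters from RefSeq. The alternatives were offsets of 0.1 and 0.0001 CPM, median-ratio scaling, a mean of at least 10 CPM, a prior without trend, library weights, depth as a covariate, only the 2 groups compared, no pairing, and leaving out each animal. RNA-Seq libraries were not analysed here.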

Additional observations from a re-analysis of the deposited data

Results flagged for a closer look

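Of 64 groups of 6 animals, 10 held a value that stood apart from the other 5 by Dixon's criterion, a wide gap to the next animal against the group's whole range, where chance gives about 1 in 20 groups. All values below are log2(CPM + 1). In FROZ, Mcm7 was 3.19 in animal 49 at 198 mg/kg-d, with the next animal at 3.68, and Rrm1 was 4.12 in animal 8 of the controls, with the next at 4.72. FROZ Ccnd1 was 2.70 in animal 52, the highest at 198 mg/kg-d, with the next at 2.29, and 2.40 in animal 98, the lowest at 427 mg/kg-d, with the next at 3.12.

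In FFPE, 4 of the 6 values were at or near 0. Pcna was 0 in animal 49 and Rrm1 was 0 in animal 53, both at 198 mg/kg-d, and Tk1 was 0 in animal 4 of the controls. Mcm7 was 0.33 in animal 53 at 198 mg/kg-d, with the next animal at 4.63. FFPE Ccnd1 was 4.97 in animal 76 at 313 mg/kg-d, with the next at 6.53, and 3.38 in animal 98 at 427 mg/kg-d, with the next at 5.77. Animal 98 thus stood apart for Ccnd1 in both of its libraries. The FFPE library of animal 49 held the fewest reads of all, 1.83 M.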

How the results depend on the processing

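Over 114 changes of single genes, no called change turned in sign under any alternative run, 3558 values kept the call or its absence, 27 lost the call and 11 gained it. Counts of the 10 genes that passed in FROZ moved as follows. At 198 mg/kg-d 1 passed, and 0 with depth as a covariate, with an offset of 0.0001 CPM (Tk1, FDR 0.0525) or with a prior without trend (FDR 0.0508), and 0 to 1 when each animal was left out (0 without animal 3, 5, 6, 7, 49, 50, 51, 52 or 53). At 313 mg/kg-d 6 passed, and 3 with depth as a covariate or among genes averaging 10 CPM or more, and 5 to 8 when each animal was left out. At 427 mg/kg-d 2 passed, and 1 with a mean of at least 10 CPM. From 198 to 427 mg/kg-d 1 passed, and 0 with a mean of at least 10 CPM and 2 when only the 2 groups were fitted. From 313 to 427 mg/kg-d 2 passed, and 1 with depth as a covariate or a mean of at least 10 CPM, and 1 to 3 when each animal was left out. On the slope 2 passed, and 1 with a mean of at least 10 CPM, and 2 to 3 when each animal was left out. The filter at 10 CPM leaves fewer genes to test, and Ccnd1, Mcm2, Mcm3, Mcm4 and Mcm5 are below it. The cause of the other moves was not tested. Mcm6 at 313 mg/kg-d passed when only the 2 groups were fitted (FDR 0.0187) and without any 1 of 5 animals, and Pcna without either of 2. In FFPE, and for the difference between preservations, 0 passed under every alternative run. With no replicate block (both preservations as unpaired libraries) the difference also passed for 0 genes at each dose, so pairing changed no call. Depth limits Mcm4 and Mcm5 in FROZ and single FFPE libraries, where a value of 0 allows up to 3 reads.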
